A study of Mus musculus with 25 samples.

Results

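*Lin28b*, *Igf2bp1*, *Igf2bp2*, *Igf2bp3*, *Hmga1*, *Hmga2* and *Arid3a* are 7 genes that are often described together as a fetal gene program. They were found by matching the Ensembl identifiers of the deposited count table to these symbols, and all 7 were among its 46078 genes. RNA was sequenced from group 1 innate lymphoid cells (G1-ILCs), the lineage of ILC1s and natural killer (NK) cells, sorted from wild type C57BL/6 mice. FL G1-ILCs came from fetal liver at E18.5 and were gated as CD49a int CD49b int (4 libraries). The other groups came from mice of 8 weeks. Adult liver (AL) gave AL 7R- ILC1s (CD49a+ CD49b lo, IL-7R negative, 4 libraries), AL 7R+ ILC1s (the same gate, IL-7R positive, 3 libraries) and AL NK cells (CD49a- CD49b+, 2 libraries). Bone marrow (BM) gave BM iILC1s, which are immature ILC1s of the CD49a+ CD49b lo gate (3 libraries), and BM NK cells (CD49a- CD49b+, 3 libraries). Small intestinal lamina propria gave LPL ILC1s (CD27+ IL-7R+, 4 libraries), and salivary gland gave SG G1-ILCs (CD49a+ CD49b+, 2 libraries). Every gate also asked for CD3- cells with NK1.1 and NKp46. FL G1-ILCs were the only fetal group, so age and gate cannot be told apart in comparisons with the 3 adult liver groups, nor age, gate and tissue in comparisons with the other adult groups. The study calls the libraries biological replicates but does not state whether they came from separate animals, so p-values measure the spread between these samples, which may be technical in part.

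Totals ran from 2302643 to 7995906 counts per library. FL G1-ILCs replicates 2 and 3 differed by hardly more than sampling noise (chi-square per degree of freedom 1.17, against 3.38 to 10.7 for the other 28 pairs of replicates) and were counted as 1 sample with their counts summed, which left 24 samples, of which 3 were fetal and 21 adult. The defining genes of G1-ILCs were present in FL G1-ILCs. Levels are given in CPM, a gene's share of the TMM-scaled library total in millionths. *Klrb1c*, the gene of NK1.1, was at 928 to 1009 CPM in FL G1-ILCs, against 863 to 2300 CPM in the adult samples, and *Ncr1*, the gene of NKp46, at 585 to 615 CPM, against 501 to 1981 CPM. *Il7r* was at 0.374 to 1.74 CPM in FL G1-ILCs, against 0.579 to 1189 CPM in the adult samples.

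LIN28B is an RNA-binding protein of fetal cells that keeps precursors of the let-7 family of microRNAs from being matured. Mature let-7 in turn pairs through its seed with the 3′ untranslated regions (3′ UTRs) of growth-related mRNAs, among them *Lin28b* itself, the IGF2BP genes, which encode proteins that bind and stabilise mRNAs, and *Hmga2*, which encodes a chromatin protein with AT hooks. In blood formation, LIN28B marks the fetal stage, and IGF2BP3, HMGA2 and the DNA-binding protein ARID3A have been described downstream of it.

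The sequences behind this pathway are shown because 1 short run of letters connects the members. RefSeq (GRCm38.p6) lists 11 mature 5p sequences of let-7 and miR-98 with 9 names, and all of them share 1 seed, GAGGUAG. In these 3 examples the seed (bases 2 to 8) is in capitals. They lie on the plus strand at chr9:106178846-106178867 (let-7g), and on the minus strand at chr13:48538239-48538260 (let-7a) and chr13:48536078-48536099 (let-7d).
mmu-let-7a-5p: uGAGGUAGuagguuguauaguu
mmu-let-7d-5p: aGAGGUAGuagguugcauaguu
mmu-let-7g-5p: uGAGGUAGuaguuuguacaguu

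LIN28 proteins are known to recognise the letters GGAG in the terminal loop of let-7 precursors. The stretch between the 5p and 3p arms held GGAG, read on the transcribed strand only, in 9 of 12 let-7 and miR-98 hairpins, against 7 of 50 other mouse hairpins with loops of 23 to 36 bases (14%). Loops of let-7g and let-7a-1 with the motif in capitals, and that of let-7b, where these letters do not occur, are printed here. Their hairpins lie at chr9:106178840-106178927 (let-7g, plus strand), chr13:48538179-48538272 (let-7a-1, minus strand) and chr15:85707319-85707403 (let-7b, plus strand).
Mirlet7g loop: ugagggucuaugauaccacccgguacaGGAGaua
Mirlet7a-1 loop: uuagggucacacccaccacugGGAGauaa
Mirlet7b loop: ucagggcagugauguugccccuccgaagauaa

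The DNA letters that pair with the seed, CTACCTC, were searched on the transcribed strand of the longest annotated 3′ UTR of each gene. They occurred in every one of the 7 members. *Lin28b*, *Igf2bp1* and *Hmga2* had 4 matches each, *Arid3a* had 2, and *Igf2bp2*, *Igf2bp3* and *Hmga1* had 1 each. Over 20983 genes with a 3′ UTR, 9.03% held a match and 0.0572% held 4 or more, and among 3′ UTRs close to each member in length, 8.25% (*Hmga1*) to 34.3% (*Igf2bp1*) held one. The longer form with an A after the match, CTACCTCA, was present in each member except *Hmga1* and in 3.06% of all 3′ UTRs. The first match of each gene is shown with the letters of the match in capitals, from 15 bases before it to 1 after it. The matches lie at chr10:45381023-45381029 (*Lin28b*), chr11:95961779-95961785 (*Igf2bp1*), chr16:22059474-22059480 (*Igf2bp2*), chr6:49086788-49086794 (*Igf2bp3*) and chr10:120364225-120364231 (*Hmga2*) on the minus strand, and at chr17:27563292-27563298 (*Hmga1*) and chr10:79953910-79953916 (*Arid3a*) on the plus strand of GRCm38.
Lin28b: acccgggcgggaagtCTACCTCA
Igf2bp1: gctgtgcgaagtaaaCTACCTCA
Igf2bp2: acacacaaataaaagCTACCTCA
Igf2bp3: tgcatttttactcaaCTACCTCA
Hmga1: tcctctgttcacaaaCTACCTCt
Hmga2: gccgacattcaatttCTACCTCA
Arid3a: aaggcaagtttctttCTACCTCA
A match is a description of the letters and not a measured site. *Lin28b*, the IGF2BP genes and *Hmga2* were known let-7 targets beforehand, and GGAG was known from let-7 loops. Neither count is therefore a new result, and the shares beside them give a scale only. let-7 itself was not measured, since the library chemistry copies poly(A) RNA, and the 12 rows of let-7 and miR-98 genes in the table held 31 counts in all.

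The 7 members did not move as 1 block. *Lin28b* and *Igf2bp3* were present in FL G1-ILCs and near the limit of detection in every adult sample. *Arid3a* was highest in FL G1-ILCs and, among adult groups, in the ILC1s of the liver. *Hmga1* was expressed in every group, highest in FL G1-ILCs and BM NK cells. *Igf2bp1* and *Igf2bp2* gave a few counts in fetal and adult samples, with ranges that overlapped. *Hmga2* was near the limit of detection in all samples, at 0 to 0.187 CPM in FL G1-ILCs and at most 1.62 CPM in adult ones.

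By edgeR's quasi-likelihood test with Benjamini-Hochberg adjustment over 14123 genes, 4 of the 5 members that were tested (*Lin28b*, *Igf2bp3*, *Arid3a* and *Hmga1*) passed an adjusted p of 0.05 and rose in FL G1-ILCs against the mean of the adult groups, as did 26.3% of all genes tested, and the median change over all genes was -0.000393. The same 4 rose against AL 7R- ILC1s (22.4% of all genes), AL 7R+ ILC1s (21.2%), AL NK cells (19.8%), BM iILC1s (20.9%), LPL ILC1s (31.8%) and SG G1-ILCs (21.9%). Against BM NK cells (19.4%) the 4 were *Lin28b*, *Igf2bp3*, *Arid3a* and *Igf2bp2*. These counts are descriptions only, since *Lin28b* and *Igf2bp3* entered the test through the fetal samples, and the 7 comparisons share those samples. In bulk RNA, fewer cells that express a gene and less RNA of it per cell cannot be told apart.

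*Lin28b* (ENSMUSG00000063804, chr10:45376620-45486395, minus strand) gave 54, 26, 51 and 37 counts in the 4 FL libraries, against 0 to 6 counts in the 21 adult ones. In CPM, FL G1-ILCs were at 10.1 (replicate 1), 11.1 (replicates 2 and 3 together) and 8.04 (replicate 4). The adult liver groups were at 0.249, 0.337, 0 and 0 CPM (AL 7R- ILC1s), at 0.413, 0.221 and 0.115 CPM (AL 7R+ ILC1s) and at 0.361 and 0.240 CPM (AL NK cells). The fetal samples stood far above all samples of the adult organ. In the other tissues the gene was at 0.589, 0.393 and 0.599 CPM in BM iILC1s, at 0.50, 0 and 0.202 CPM in BM NK cells, at 0.583, 0.574, 0.508 and 1.66 CPM in LPL ILC1s and at 0.282 and 0 CPM in SG G1-ILCs. A count of 0 allows up to 3 counts in that library, and these limits, like the intervals given here, cover counting error only. FL G1-ILCs and the adult samples did not overlap, and below FL G1-ILCs the order by mean was LPL ILC1s, BM iILC1s, AL NK cells, AL 7R+ ILC1s, BM NK cells, AL 7R- ILC1s and SG G1-ILCs. Of these neighbours only BM iILC1s and AL NK cells had ranges that did not overlap. That gap rests on 3, 2 and 3 counts against 2 and 1. The 95% counting intervals of their pooled rates overlapped (0.252 to 1.15 and 0.0665 to 0.943 CPM), so the order among adult groups is a description only.

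The level of *Lin28b* averaged 9.76 ± 1.58 CPM (SD, n = 3) in FL G1-ILCs, and the adult group means ran from 0.141 to 0.832 CPM. Pooled over libraries, the rate of counts in FL G1-ILCs was 28.3 times that of the adult samples (exact 95% interval 19.6 to 42.0, from 168 and 35 counts). By edgeR's quasi-likelihood test the log2 fold change of FL G1-ILCs over the mean of the 7 adult groups was 4.97 (standard error 0.43, adjusted p = 3.19e-10). Against single adult groups it lay between 3.52 (LPL ILC1s, adjusted p = 6.67e-05) and 5.94 (SG G1-ILCs, adjusted p = 0.000101), and each of these 7 comparisons passed the threshold of an adjusted p of 0.05. The largest of them rests on 1 count in SG G1-ILCs, for which the pooled ratio was 77.7 with an interval of 13.8 to 3090. *Lin28b* passed the filter on low counts only through its 3 FL samples, so that a gene tested at this level had to differ.

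*Igf2bp3* (ENSMUSG00000029814, chr6:49085223-49214957, minus strand), an oncofetal mRNA-binding protein, had the largest change of the members. Its level was 105.5, 82.3 and 84.3 CPM in FL G1-ILCs (replicate 1, replicates 2 and 3 together, and replicate 4). It was 0.497, 1.01, 0.723 and 1.01 CPM in AL 7R- ILC1s, 2.48, 0 and 0.576 CPM in AL 7R+ ILC1s, and 1.08 and 1.44 CPM in AL NK cells. It was 0.393, 1.77 and 0.599 CPM in BM iILC1s, 1.33, 1.77 and 1.01 CPM in BM NK cells, 1.17, 1.72, 0.762 and 1.66 CPM in LPL ILC1s, and 0.846 and 1.77 CPM in SG G1-ILCs. Every FL sample was thus far above every adult one, while all neighbouring adult groups overlapped, with means from 0.809 CPM (AL 7R- ILC1s) to 1.37 CPM (BM NK cells).

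The mean of *Igf2bp3* was 90.7 ± 12.9 CPM (SD, n = 3) in FL G1-ILCs, and the pooled rate of counts was 80.1 times that of the adult samples (exact 95% interval 66.1 to 97.9, from 1521 and 112 counts). The log2 fold change over the mean of the adult groups was 6.31 (standard error 0.26, adjusted p = 3.08e-16, edgeR), and only 9 of the 14123 tested genes (0.0637%) rose by more. Against single groups it ran from 6.01 (BM NK cells) to 6.76 (AL 7R- ILC1s), each with an adjusted p of at most 1.83e-08. Like *Lin28b*, the gene passed the filter through its FL samples, since 1 adult sample alone reached the required level. *Igf2bp3* shares 1529 exonic bases with *Malsu1*, a gene of the mitochondrial ribosome on the opposite strand, and the strand setting of the counting is not given in the sources used here. *Malsu1* was at 32.6 to 33.7 CPM in FL G1-ILCs and at 83.2 to 98.3 CPM in LPL ILC1s, where *Igf2bp3* was at 0.762 to 1.72 CPM.

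*Arid3a* (ENSMUSG00000019564, chr10:79927043-79955018, plus strand) encodes a DNA-binding protein with an AT-rich interaction domain that is known from B cells and blood stem cells. Its level was 109.5, 123 and 132.6 CPM in FL G1-ILCs. In the adult liver it was 68.3, 60.2, 40.5 and 48.0 CPM in AL 7R- ILC1s, 36.7, 55.4 and 53.6 CPM in AL 7R+ ILC1s, and 15.5 and 20.4 CPM in AL NK cells. Both liver ILC1 groups therefore lay between FL G1-ILCs and AL NK cells without overlapping either. In bone marrow it was 23.2, 21.2 and 23.2 CPM in BM iILC1s and 10.5, 12.9 and 11.5 CPM in BM NK cells. It was 18.7, 23.8, 23.9 and 6.93 CPM in LPL ILC1s, whose replicate 4 stood below the other three, and 18.6 and 22.5 CPM in SG G1-ILCs.

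By mean, the order for *Arid3a* was FL G1-ILCs (121.7 ± 11.6 CPM, SD, n = 3), AL 7R- ILC1s (54.3 ± 12.4, n = 4), AL 7R+ ILC1s (48.6 ± 10.3, n = 3), BM iILC1s (22.5 ± 1.13, n = 3), SG G1-ILCs (20.6 ± 2.74, n = 2), LPL ILC1s (18.3 ± 7.98, n = 4), AL NK cells (17.9 ± 3.44, n = 2) and BM NK cells (11.7 ± 1.22, n = 3). FL G1-ILCs stood apart from AL 7R- ILC1s, AL 7R+ ILC1s from BM iILC1s, and AL NK cells from BM NK cells, and the other neighbours overlapped. The log2 fold change of FL G1-ILCs over the mean of the adult groups was 2.34 (standard error 0.17, adjusted p = 8.93e-12, edgeR). Against single groups it ran from 1.17 (standard error 0.24, AL 7R- ILC1s, adjusted p = 0.000226) to 3.38 (standard error 0.29, BM NK cells, adjusted p = 8.01e-10), and all 7 comparisons passed.

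*Hmga1* (ENSMUSG00000046711, chr17:27556497-27563674, plus strand) encodes a chromatin protein with AT hooks that is abundant in dividing and embryonic cells. Its level was 103.5, 100.4 and 118 CPM in FL G1-ILCs and 83.0, 101.5 and 74.7 CPM in BM NK cells, so 1 BM NK sample lay within the fetal range. It was 53.6 and 65.2 CPM in AL NK cells and 39.1, 54.8 and 53.1 CPM in BM iILC1s. The remaining groups were close together, with 44.2, 36.4 and 45.2 CPM in AL 7R+ ILC1s, 35.3, 35.3, 37.9 and 36.6 CPM in LPL ILC1s, 33.1, 40.0, 29.7 and 41.2 CPM in AL 7R- ILC1s, and 32.2 and 33.6 CPM in SG G1-ILCs. Among neighbours in this order only BM NK cells and AL NK cells did not overlap.

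The log2 fold change of *Hmga1* in FL G1-ILCs over the mean of the adult groups was 1.21 (standard error 0.11, adjusted p = 7.57e-10, edgeR). It was higher in FL G1-ILCs than in 6 of the adult groups, from 0.85 against AL NK cells (standard error 0.18, adjusted p = 0.000511) to 1.70 against SG G1-ILCs (standard error 0.19, adjusted p = 6.80e-08). Against BM NK cells the difference was 0.31 (standard error 0.16, adjusted p = 0.132) and did not pass, which does not show that the 2 groups had the same level. *Hmga1* has a near-identical copy on chromosome 11, *Hmga1b*, to which 688 counts were assigned against 6825 for *Hmga1*, and reads could be split between the copies in a way the files do not show. *Hmga1b* was at 9.73 to 12.2 CPM in FL G1-ILCs and at 2.60 to 8.50 CPM in the adult samples, and its log2 fold change over the mean of the adult groups was 1.13 (standard error 0.22, adjusted p = 0.000124).

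**Figure D1:**
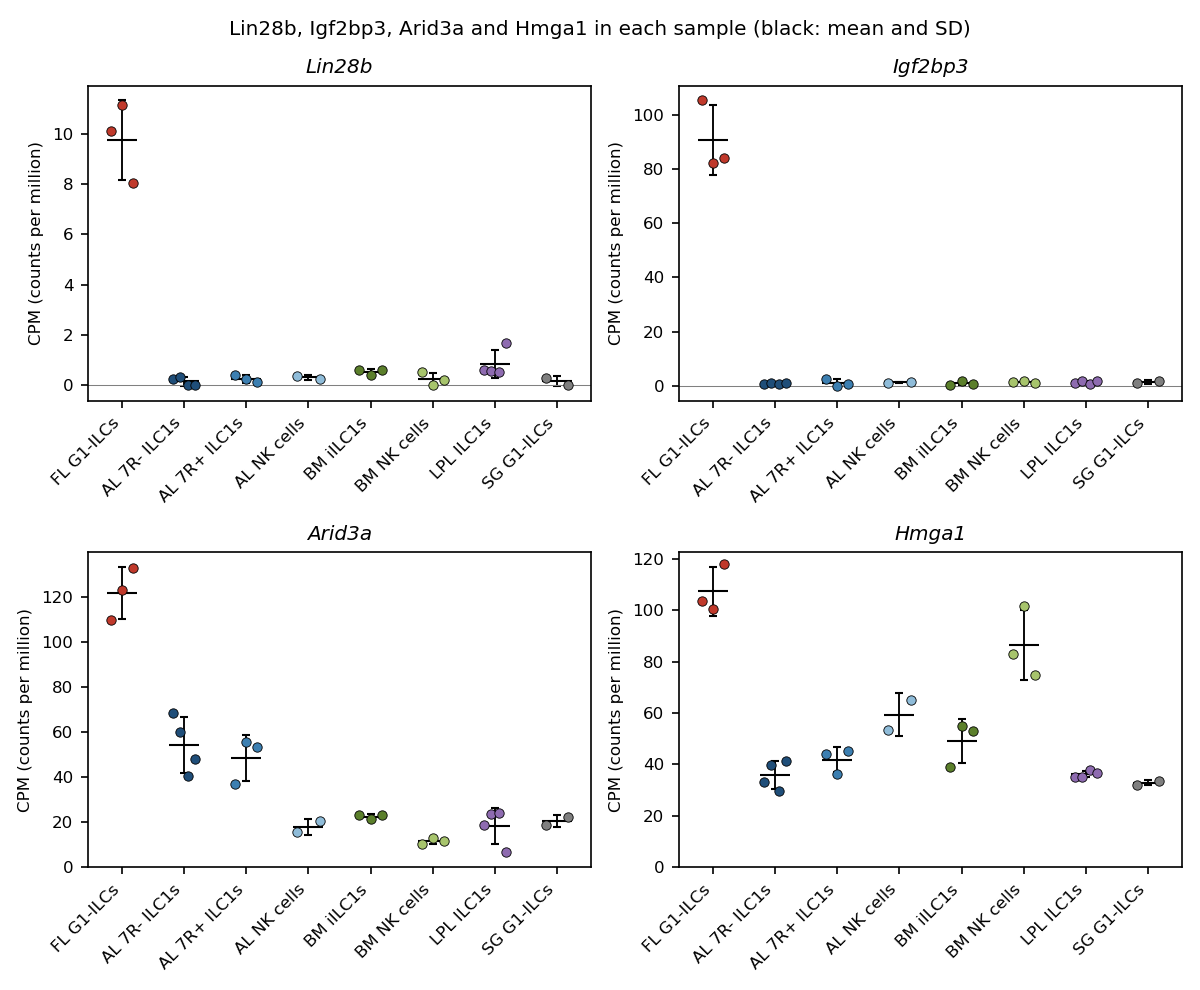
Each point is a sample, the vertical axes give CPM, and the black marks give the mean and SD of a group. *Lin28b* (8.04 to 11.1 CPM in FL G1-ILCs, at most 1.66 in adult samples) and *Igf2bp3* (82.3 to 105.5 and at most 2.48) were near 0 in adult groups, whereas *Arid3a* was intermediate in liver ILC1s and *Hmga1* in BM NK cells reached the fetal range.

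The remaining members gave too few counts for firm statements. *Igf2bp1* (ENSMUSG00000013415, chr11:95957163-96005940, minus strand) gave 15, 2, 3 and 4 counts in the FL libraries and 0 to 9 counts in adult ones, and did not pass the filter. Its level was 2.81, 0.724 and 0.869 CPM in FL G1-ILCs and 2.63, 0.860, 1.02 and 1.94 CPM in LPL ILC1s, so that these 2 groups overlapped, while the other 17 adult samples were at 0 to 1.26 CPM. The high FL value comes from replicate 1. The pooled rate of counts in FL G1-ILCs was 2.14 times that of the adult samples (exact 95% interval 1.28 to 3.47, from 24 and 66 counts), and 1.13 times that of LPL ILC1s (0.609 to 2.09). Tested without the filter, the log2 fold change over the mean of the adult groups was 1.45 (adjusted p = 0.158, edgeR) and did not pass.

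*Igf2bp2* (ENSMUSG00000033581, chr16:22059009-22163299, minus strand), a member of the same family that is also used by adult tissues, was at 1.12, 3.04 and 0.435 CPM in FL G1-ILCs. Its adult levels were at their highest in AL 7R+ ILC1s, at 3.51, 3.97 and 2.30 CPM, and at their lowest in BM NK cells, at 0.167, 0.177 and 0.202 CPM. Single samples decided other means, such as 3.20 CPM in AL 7R- ILC1s replicate 2, where the other three were at 0 to 0.723 CPM, and 3.73 CPM in BM iILC1s replicate 2, where the others were at 0.589 and 1.20 CPM. The gene was at 3.50, 0.574, 2.29 and 2.22 CPM in LPL ILC1s, at 0.541 and 0.240 CPM in AL NK cells and at 0.282 and 1.26 CPM in SG G1-ILCs. FL G1-ILCs over the mean of the adult groups gave 0.67 on the log2 scale (edgeR, standard error 0.65, adjusted p = 0.428), with values on both sides of 0 against single groups. It passed against BM NK cells (2.96, standard error 1.12, adjusted p = 0.0421), a call that ended when any of the 3 BM NK libraries, FL replicate 1, or FL replicates 2 and 3 were left out (1.98 to 3.15, adjusted p = 0.0505 to 0.26).

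*Hmga2* (ENSMUSG00000056758, chr10:120361275-120476469, minus strand), a relative of *Hmga1* known from embryonic tissue, gave 1, 0, 0 and 0 counts in the 4 FL libraries, against 66 counts in the 21 adult ones, where 20 of them were in BM NK cells (0.667, 1.42 and 1.62 CPM) and 9 in SG G1-ILCs (1.41 and 1.01 CPM). All other adult samples were at 0 to 0.902 CPM, against 0.187, 0 and 0 CPM in FL G1-ILCs. The pooled rate in FL G1-ILCs was 0.0893 times that of the adult samples (exact 95% interval 0.00223 to 0.515). *Hmga2* did not pass the filter. Without it the log2 fold change over the mean of the adult groups was -2.89 (adjusted p = 0.0821, edgeR, where 14.9% of all genes passed), and DESeq2 gave -3.33 (adjusted p = 0.0398, 16.4%). The comparisons with BM NK cells (-3.87, adjusted p = 0.0295) and SG G1-ILCs (-3.81, adjusted p = 0.0494) passed in edgeR without the filter, as 9.91% and 12.9% of all genes did.

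**Figure D2:**
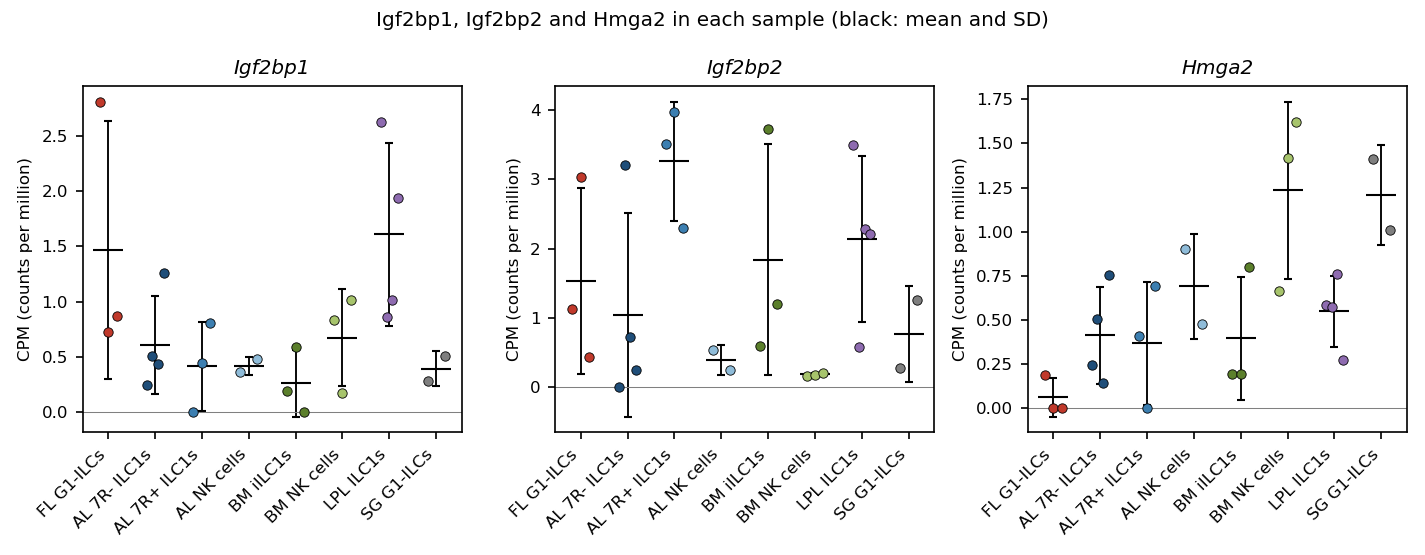
Each point is a sample, the vertical axes give CPM on scales of their own, and the black marks give the mean and SD of a group. No sample exceeded 3.97 CPM, FL G1-ILCs overlapped adult groups for *Igf2bp1* and *Igf2bp2*, and *Hmga2* was at 0 to 0.187 CPM in FL G1-ILCs.

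Set against each other per kilobase of exon, the mean levels in FL G1-ILCs were 50.5 CPM per kb for *Hmga1*, 21.9 for *Arid3a*, 11.1 for *Igf2bp3*, 1.08 for *Lin28b*, 0.207 for *Igf2bp2*, 0.152 for *Igf2bp1* and 0.00921 for *Hmga2*. *Igf2bp3* mRNA was thus more abundant per length than that of *Lin28b* in the fetal cells. In AL 7R- ILC1s, the adult group of the same organ that also lacks IL-7R, the same quantity was 16.9 for *Hmga1*, 9.76 for *Arid3a*, 0.0992 for *Igf2bp3* and 0.0162 for *Lin28b*.

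**Figure D3:**
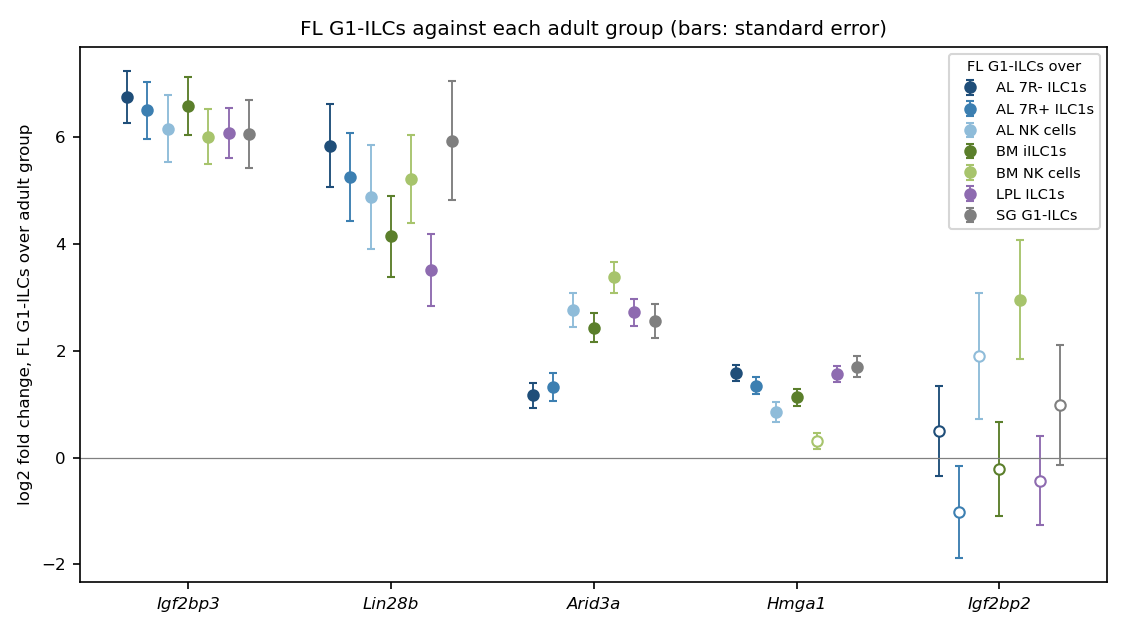
The vertical axis gives the log2 fold change of FL G1-ILCs over each adult group, with bars of 1 standard error and filled points where the adjusted p was under 0.05. *Igf2bp3* lay between 6.01 and 6.76 in all 7 comparisons, *Hmga1* against BM NK cells (0.31) is open, and *Igf2bp2* lay on both sides of 0.

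Apart from the fetal group, *Arid3a* and *Hmga1* differed among the 7 adult groups (adjusted p = 1.08e-07 and 1.06e-07, joint test in edgeR), as 69.5% of all genes did. *Igf2bp2* also passed (adjusted p = 0.0279), but not without AL 7R+ replicate 1 or 2, AL NK replicate 2 or any BM NK library (adjusted p = 0.0511 to 0.0692). For *Lin28b* (0.158) and *Igf2bp3* (0.855) the same test did not pass. Only 0 (*Lin28b*) and 1 (*Igf2bp3*) of the adult samples reached the level of the filter, so the test could hardly find a difference there. It does not show equal levels among the adult groups.

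In the adult liver, *Arid3a* was higher and *Hmga1* lower in AL 7R- ILC1s than in NK cells. *Arid3a* differed by 1.6 on the log2 scale (standard error 0.31, adjusted p = 0.000285, edgeR), in a comparison that called 20.4% of all genes. The comparison of AL 7R+ ILC1s with AL NK cells gave 1.44 (standard error 0.32, adjusted p = 0.00158, with 15.6% of all genes called), although without AL NK replicate 1 this was 1.25 (adjusted p = 0.0601). *Hmga1* went the other way in AL 7R- ILC1s against AL NK cells (-0.72, standard error 0.17, adjusted p = 0.00243), which became -0.58 (adjusted p = 0.0846) without AL NK replicate 2. In AL 7R+ ILC1s against AL NK cells it was -0.50 (standard error 0.18, adjusted p = 0.0629). Between AL 7R- and AL 7R+ ILC1s, where 5.28% of all genes passed, the difference was 0.15 (standard error 0.24, adjusted p = 0.859) for *Arid3a* and -0.23 (standard error 0.15, adjusted p = 0.552) for *Hmga1*.

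In bone marrow, *Hmga1* was lower in BM iILC1s than in BM NK cells (-0.82, standard error 0.16, adjusted p = 0.000686, with 12.1% of all genes called). *Arid3a* was higher in BM iILC1s (0.95, standard error 0.29, adjusted p = 0.028), but this call ended when any 1 of the 6 libraries was left out (0.88 to 1.03, adjusted p up to 0.114). Whether liver and marrow differed in their contrast between ILC1s and NK cells was itself tested, in a comparison added after the data were seen, and the value was 0.57 (standard error 0.40, adjusted p = 0.564) for *Arid3a* and 0.21 (standard error 0.23, adjusted p = 0.759) for *Hmga1*. Between tissues, LPL ILC1s against AL 7R+ ILC1s gave -1.41 for *Arid3a* (standard error 0.26, adjusted p = 4.96e-05, 51% of all genes called). SG G1-ILCs against AL 7R- ILC1s gave -1.39 for the same gene (standard error 0.31, adjusted p = 0.000812, 32.4% called). For *Hmga1* these differences were -0.21 (adjusted p = 0.266) and -0.13 (adjusted p = 0.649).

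Relatives of the members were read for the same contrast. *Lin28a*, the paralog that acts earlier in development, was below the filter, with 29 counts in FL G1-ILCs and 18 in all adult libraries. Its level was 1.87, 1.45 and 1.96 CPM in FL G1-ILCs, against at most 0.831 CPM in the adult samples, and the pooled ratio was 9.5 (exact 95% interval 5.1 to 18.2). *Arid3b*, the paralog of *Arid3a* and a known let-7 target, was at 45.3 to 61.1 CPM in FL G1-ILCs, against 17.8 to 86.6 CPM in the adult samples (a difference of -0.15 on the log2 scale, edgeR's adjusted p = 0.409). *Igf2*, the mRNA for which the IGF2BP proteins are named, gave at most 0.374 CPM in FL G1-ILCs and 1.26 CPM in adult samples. These 3 genes, *Malsu1* and *Hmga1b* were picked after their values were seen.

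Of 18 genes of the HMG and ARID families other than the members, 16 were tested, 6 rose and 5 fell in FL G1-ILCs against the mean of the adult groups, where 26.3% and 20.6% of all genes did (median -0.05, against -0.000393 for all genes). The genes that rose encode small chromatin proteins of the HMGB and HMGN classes. *Hmgb3* was at 80.1 to 98.9 CPM in FL G1-ILCs, against 2.32 to 32.7 CPM in adult samples (2.77, standard error 0.21, adjusted p = 3.09e-11). *Hmgb2*, which is known to follow cell division, was at 2387 to 2444 CPM, against 239 to 1148 CPM (2.31, adjusted p = 1.81e-15). *Hmgn2* (1.98) and *Hmgn5* (0.98) rose less, and *Arid1b* (-0.87), *Arid4a* (-0.78), *Arid5a* (-0.76) and *Arid5b* (-0.70) were the members of the ARID family that fell most.

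The machinery around let-7 did not shift in 1 direction. Of 15 genes of let-7 processing and use, 13 were tested, 5 rose and 4 fell (median 0.03), where 26.3% of all genes rose and 20.6% fell. *Drosha*, the nuclease that cuts primary transcripts, was at 56.1 to 74.1 CPM in FL G1-ILCs, against 10.3 to 60.4 CPM in adult samples (1.02, standard error 0.14, adjusted p = 1.06e-06). *Xpo5*, the exporter of precursors, rose by 0.99 (adjusted p = 0.000126), *Khsrp*, which promotes the maturation of let-7, by 0.85 (adjusted p = 1.02e-05), and *Dgcr8*, the partner of Drosha, by 0.72 (adjusted p = 0.000599), and the fifth was *Tarbp2*, a partner of Dicer (0.44, adjusted p = 0.034). Of the genes of uridyl transferases, *Tut4* fell to 87.4 to 114.5 CPM, against 135.3 to 327.7 CPM in adult samples (-1.04, standard error 0.10, adjusted p = 3.68e-09), and *Tut7* fell by 0.53 on the log2 scale (adjusted p = 0.000201). *Ago3* (-0.80) and *Ago2* (-0.34), which encode proteins that carry microRNAs, fell as well. The 3 tested host genes of let-7 had adjusted p-values of 0.263 to 0.674 against the mean of the adult groups. Against single groups in edgeR, *Mir99ahg* was lower than in LPL ILC1s (-2.40, adjusted p = 0.0106) and SG G1-ILCs (-2.95, adjusted p = 0.00719). *Huwe1* was lower than in SG G1-ILCs (-0.47, adjusted p = 0.033). *Wdr82* was lower than in AL 7R- ILC1s (-0.48, adjusted p = 0.0402) and higher than in LPL ILC1s (0.49, adjusted p = 0.0272).

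Of 16 known let-7 targets outside the members, all 16 were tested and 9 rose (median 0.45), in a comparison where 26.3% of all genes rose. Their summed level was 2451 to 2752 CPM in FL G1-ILCs, 2620 to 2739 CPM in AL 7R- ILC1s and 3455 to 4150 CPM in LPL ILC1s. In the other adult groups it was 1399 to 2372 CPM. The part of let-7 in these levels was not tested. *E2f2*, a transcription factor of the cell cycle, was at 66.1 to 79.5 CPM in FL G1-ILCs, against 0.249 to 50.6 CPM in adult samples (3.93, standard error 0.26, adjusted p = 2.06e-12). *Mycn* was at 8.26 to 11.6 CPM, against 0 to 5.08 CPM (3.74, standard error 0.43, adjusted p = 6.26e-08). *Cdc25a*, a phosphatase that starts DNA replication, rose by 1.90 (adjusted p = 2.01e-07). Other targets did not pass, such as *Myc* at 248.7 to 284.1 CPM in FL G1-ILCs, against 81.8 to 2463 CPM in adult samples (0.14, adjusted p = 0.245), which was named after its values were seen. *Mycn* stands also on the list of stem and progenitor markers, and *Arid3b* on the lists of targets and of ARID genes.

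**Figure D4:**
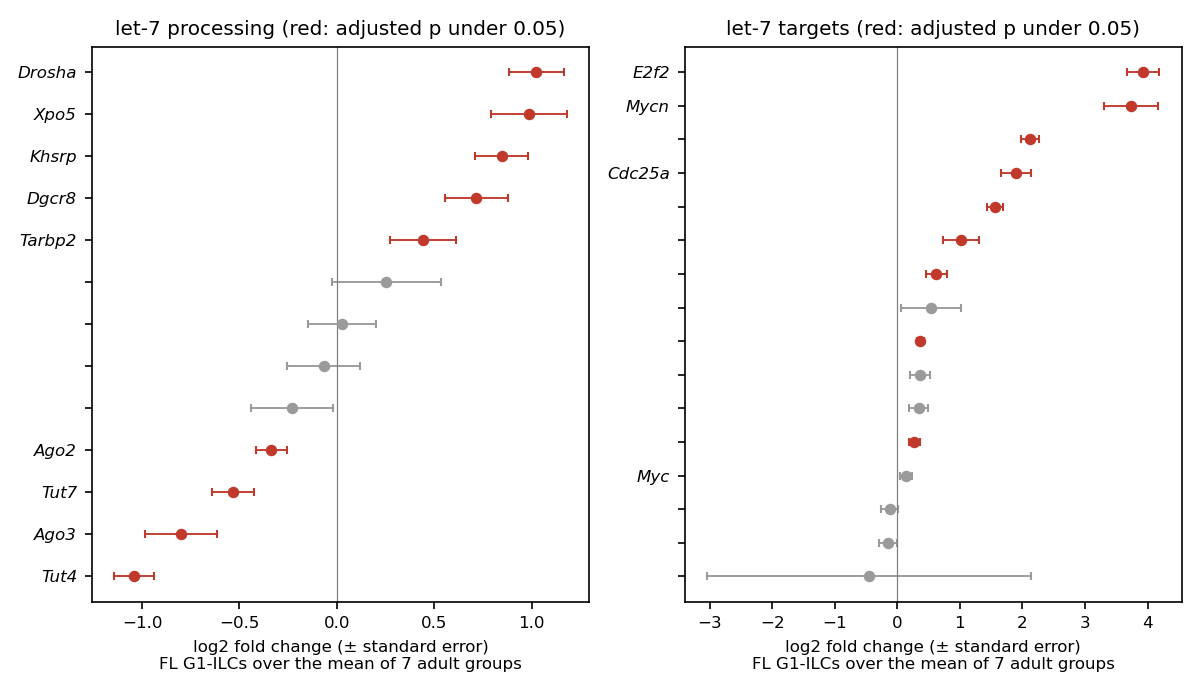
The horizontal axes give the log2 fold change of FL G1-ILCs over the mean of the 7 adult groups with bars of 1 standard error, for the 13 tested genes of let-7 processing (left) and 16 let-7 targets (right), in red where the adjusted p was under 0.05 and with labels for genes named in the text. Processing genes lay on both sides of 0, from -1.04 (*Tut4*) to 1.02 (*Drosha*), and the 9 targets in red lay to the right of 0.

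Among 17 genes of the IGF2 axis and imprinted growth genes, 7 were tested, 1 rose and 3 fell (median -0.99), against 26.3% and 20.6% of all genes. *Grb10*, an imprinted adaptor of the insulin receptor, rose (1.73, standard error 0.54, adjusted p = 0.0105) at 1.12 to 4.49 CPM in FL G1-ILCs, against 0 to 4.51 CPM in adult samples, so that the ranges overlapped. *Irs2*, a substrate of the insulin receptor, was at 0 to 1.30 CPM in FL G1-ILCs, against 0.434 to 125.6 CPM in adult samples (-4.77, standard error 0.62, adjusted p = 3.70e-07). *Cdkn1c*, an imprinted inhibitor of the cell cycle (-1.71, adjusted p = 0.00437), and *Insr*, the insulin receptor (-0.99, adjusted p = 0.000583), also fell.

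Genes of cell division were highest in FL G1-ILCs, followed by BM NK cells. All 18 cell cycle genes rose in FL G1-ILCs against the mean of the adult groups, as 26.3% of all genes did (median 4.18), led by *Plk1* (5.35), *Ccnb1* (5.05), *Ccna2* (4.63) and *Birc5* (4.58). Their summed level was 7386 to 8066 CPM in FL G1-ILCs, 1319 to 3231 CPM in BM NK cells and 484 to 1090 CPM in the other adult samples. Over the 21 adult samples, which share groups and libraries, Pearson's r of log2 levels with this sum was 0.71 for *Hmga1* and -0.66 for *Arid3a*, given as a description. *Lin28b* and *Igf2bp3* lay too near 0 in adult samples for such a value. FL G1-ILCs, which form a cluster of their own, had the highest sum and the highest levels of *Lin28b*, *Igf2bp3*, *Arid3a* and *Hmga1*. BM NK cells, with the second highest sum, had *Hmga1* at 74.7 to 101.5 CPM and *Lin28b* at 0 to 0.50 CPM. The part of cell division in the levels of the members was not tested.

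**Figure D5:**
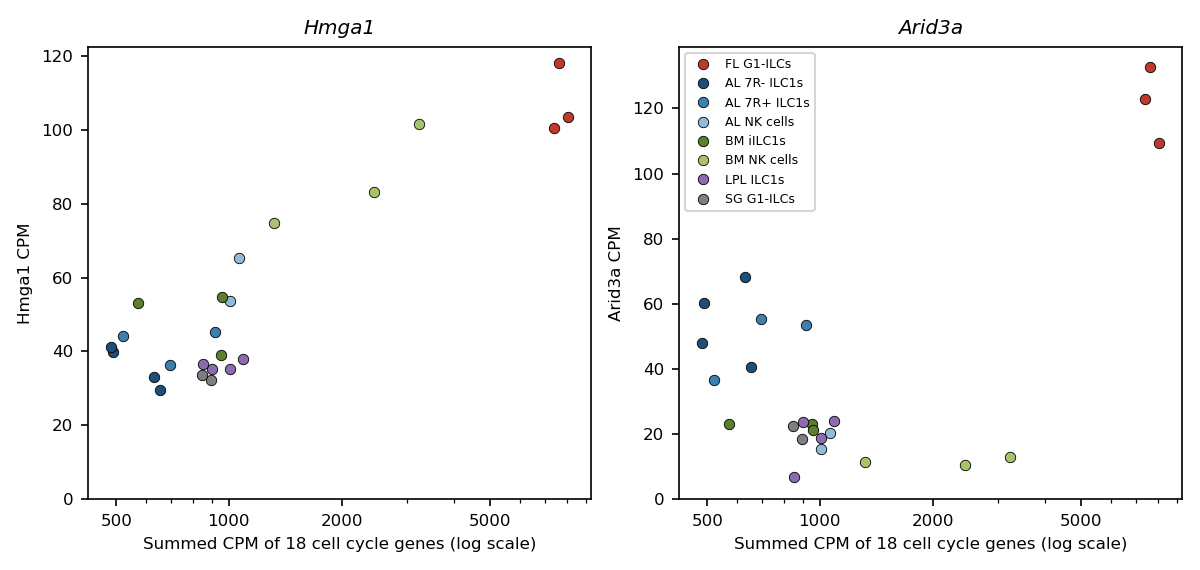
The horizontal axes give the summed CPM of 18 cell cycle genes on a log scale and the vertical axes the CPM of *Hmga1* (left) or *Arid3a* (right), with 1 point per sample. FL G1-ILCs lie at 7386 to 8066 CPM of the sum, and BM NK cells are next for the sum and for *Hmga1* but lowest on average for *Arid3a*.

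Some markers of other cells of the fetal liver rose in the fetal group and others fell. The counts of each list stand against 26.3% of all genes that rose and 20.6% that fell. Of 14 erythroid markers, 13 were in the table, 11 were tested and all 11 rose, among them *Hbb-bt* (5.92), *Hba-a1* (5.43) and *Hbb-bs* (4.88). Their summed level was 62.9, 278.2 and 203.4 CPM in FL G1-ILCs, against 9.69 to 423.4 CPM in AL 7R- ILC1s, 23.0 to 212.8 CPM in BM iILC1s, 59.2 to 90.1 CPM in LPL ILC1s and 7.73 to 39.7 CPM in the other groups. FL replicate 1 had the lowest erythroid sum of the FL samples, with *Klf1*, *Slc4a1*, *Gata1* and *Ermap* at 0 but *Tfrc* at 35.2 CPM, *Hba-a1* at 15.3 CPM and *Hbb-bs* at 6.55 CPM, and this sample had *Lin28b* at 10.1 CPM and *Igf2bp3* at 105.5 CPM, the highest of the FL samples for *Igf2bp3*. The sample with the highest erythroid sum of all, AL 7R- replicate 3, had *Lin28b* at 0 and *Igf2bp3* at 0.723 CPM. It is an adult sample, so these values cannot show what fetal erythroid cells would bring. The 3 embryonic globins *Hbb-y*, *Hbb-bh1* and *Hba-x* were at 0 in all FL samples.

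Of 16 myeloid markers, 11 were tested and 4 rose, *Ngp* (8.19), *S100a9* (7.38), *S100a8* (6.72) and *Lyz2* (2.27), which are genes of neutrophils and other myeloid cells. The summed level of the list was 1345 to 1813 CPM in FL G1-ILCs, against 1016 to 3032 CPM in adult samples, with 1216 to 1380 CPM in FL G1-ILCs from *Fcer1g*, which G1-ILCs express themselves. *Elane* and *Ctsg* were at 0 in the FL samples. The FL samples differed in which myeloid genes they held. Replicates 2 and 3 together had *S100a8* at 0 and *Ngp* at 0.145 CPM but more of several macrophage genes, with *C1qb* at 16.2 CPM, against 4.87 and 1.52 CPM in the others, and *Adgre1* at 7.81 CPM, against 0.749 and 0.652 CPM. *Lin28b* was at 11.1 CPM in that sample. Of 8 B cell markers, 5 rose, among them *Igll1* (5.94), *Vpreb1* (3.27) and *Cd79a* (2.04), with sums of 18.7 to 56.3 CPM in FL G1-ILCs, against 1.13 to 31.6 CPM in adult samples. Hepatocyte markers summed to 15.5 to 20.2 CPM in FL G1-ILCs, against 3.79 to 163.2 CPM in adult samples, where *Trf* alone reached 155.4 CPM. Of the 4 tested hepatocyte markers, *Ahsg* rose (4.55, adjusted p = 5.55e-06), at 2.83 to 3.47 CPM in FL G1-ILCs, against at most 0.754 CPM in adult samples, and *Trf* fell (-1.09, adjusted p = 0.00037). Against single groups in edgeR, *Trf* was higher than in AL NK cells (1.69, adjusted p = 0.00226) and BM NK cells (1.00, adjusted p = 0.019). It was lower than in every other adult group, most of all LPL ILC1s (-4.74, adjusted p = 6.97e-14). Of 6 tested stem and progenitor markers *Mycn* rose and *Kit* fell. The fall of *Kit* did not pass in edgeR against AL 7R- ILC1s (0.05, adjusted p = 0.963) or SG G1-ILCs (-1.52, adjusted p = 0.115). It passed against the other adult groups and was largest against LPL ILC1s (-7.96, adjusted p = 8.4e-13). T cell markers gave 2 that rose and 2 that fell of 10 tested. Megakaryocyte and mast markers summed to 0.749 to 2.75 CPM in FL G1-ILCs, against 1.77 to 11.6 CPM in adult samples, and *Cpa3* fell (-2.58, edgeR's adjusted p = 0.00515). Of the stromal and endothelial markers, *Stab2* fell (-1.33, edgeR's adjusted p = 0.0457). The other tested genes of these lists did not pass. The part of other cells in the levels of the members was not tested, and the values given for single samples are descriptions.

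Across the 24 samples, the genes most like each tested member by Pearson's r of log2 CPM, out of 10739 compared, were listed as a description; samples of 1 group share their gate and tissue, and FL G1-ILCs weigh heavily in r. For *Lin28b* they were *Pkm* (0.93), *Pgk1* (0.90) and *Kars* (0.89), and for *Igf2bp3* *Pgk1* (0.96), *Uba2* (0.93) and *Gm5559* (0.93). Without the FL samples these values were between -0.04 and 0.62. For *Hmga1* they were *Hmga1b* (0.92), *Shmt2* (0.92), the serine hydroxymethyltransferase of mitochondria, and *Tuba1b* (0.91), with 0.85 to 0.86 without the FL samples. Among the nearest to *Arid3a* were *Galns* (0.87) and *Plod1* (0.86), with 0.89 and 0.83 without the FL samples. *Igf2bp2* was nearest to *Pdha1* (0.74), *Phtf2* (0.73) and *Ahcyl2* (0.73).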

How the data were processed

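Sorted cells of 25 libraries in 8 groups were analysed by bulk RNA sequencing with a SMART-seq kit. Per the labels and the study's methods, the authors used fastp 0.23.0 for trimming, HISAT2 2.1.0 with the mm10 genome for alignment and featureCounts (Subread 1.6.5) for gene counts. The values deposited are raw counts, and how strand and multiply mapped reads were handled is not given in the sources used here. Names and positions came from GENCODE vM21 of GRCm38 (849 identifiers without a match held 0.104% of the counts), and miRNA sequences from RefSeq.

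Counts were scaled by TMM and tested with the quasi-likelihood test of edgeR 4.0.16 (R 4.3.3) in 1 fit of 8 groups and 24 samples. The filterByExpr function (minimum count 10) retained 14123 genes (5 of the 7 members), and p-values were adjusted by Benjamini-Hochberg over all of them, with a threshold of 0.05. Log2 CPM used a prior count of 2. The mean of the 7 adult groups weighs each group equally. Alternatives were DESeq2 1.42.0, RLE size factors, no filter, a filter with a minimum count of 30, all 25 libraries, a replicate block, the groups compared only, libraries thinned to 1 depth, stricter thresholds, other adult references, and leaving out each library. The procedure was also run on counts simulated from its own fitted spread with known fold changes. Such a run checks the code and not how well the model fits these data. The members and lists were chosen with earlier results of these data known. Named were all members, up to 4 genes of a list in each direction with the largest change among those called, and the 3 genes nearest to each tested member; others, among them *Tarbp2* and the marker genes given for single FL samples, were picked after their values were seen. Of the list genes, 2 were not found in the table. Some items that this rule names are not reported here.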

Additional observations from a re-analysis of the deposited data

Results flagged for a closer look

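In LPL ILC1s, *Lin28b* was at 1.66 CPM in replicate 4, from 6 counts, and at 0.508 to 0.583 CPM in the other three libraries, from 2 counts each, so 1 sample stood far from the others of its group. It was the only such sample among 14 groups of values that were checked. These were the 7 members in AL 7R- ILC1s and LPL ILC1s, since the check needs at least 4 samples. FL G1-ILCs and the remaining groups were not checked. The limit used for such a gap is passed by about 1 in 20 groups of continuous, normally distributed values. Counts as small and tied as these can pass it more easily, so that rate does not hold here. Replicate 4 also had the lowest level of *Arid3a* in LPL ILC1s, at 6.93 CPM against 18.7 to 23.9 CPM.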

How the results depend on the processing

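The changes of *Lin28b*, *Igf2bp3*, *Arid3a* and *Hmga1* in FL G1-ILCs against the mean of the adult groups kept their direction and passed under every alternative run, leaving out each library included, with log2 fold changes of 4.85 to 5.37, 6.19 to 6.50, 2.27 to 2.41 and 1.14 to 1.26 when 1 library was left out. For *Lin28b* and *Igf2bp3* this is no sign of stability, since they entered the test through the fetal samples. *Igf2bp2* had -0.31 to 1.08 there and passed in none of these fits. Replicate numbers do not pair these samples (mean correlation of same-numbered libraries -0.00452, of others 0.00169, and for 6 of 25 libraries the best match carried the same number). With a replicate block and 25 separate libraries, *Lin28b* had 5.06 (adjusted p = 4.51e-10) and *Igf2bp3* 6.31 (adjusted p = 5.62e-16), 7004 genes were called against 6621, and no call of a member changed. Counts of all genes called moved with the threshold. With a fold limit of 1 on the log2 scale as well, FL G1-ILCs had 2812 genes against the mean, 3051 against AL 7R- ILC1s, 2972 against AL 7R+ ILC1s, 2871 against AL NK cells, 2938 against BM iILC1s, 2271 against BM NK cells, 5426 against LPL ILC1s and 3694 against SG G1-ILCs. That limit gave 396 genes for AL 7R- against AL 7R+ ILC1s, 1599 and 1260 for AL 7R- and AL 7R+ ILC1s against AL NK cells, 1029 for BM iILC1s against BM NK cells, 4271 for LPL ILC1s against AL 7R+ ILC1s and 2684 for SG G1-ILCs against AL 7R- ILC1s. An adjusted p under 0.01 left 454, 1413 and 1071 genes for AL 7R- against AL 7R+ ILC1s, AL 7R+ ILC1s against AL NK cells and BM iILC1s against BM NK cells. Leaving out 1 library gave 1912 to 2739 genes for AL 7R- ILC1s and 1387 to 1936 genes for AL 7R+ ILC1s, each against AL NK cells, with the lowest counts without AL NK replicate 1. *Hmga1* in AL 7R+ ILC1s against AL NK cells passed with DESeq2 (adjusted p = 0.0453) and with thinned libraries (adjusted p = 0.049). Depth limits *Lin28b* in adult cells, *Igf2bp1*, *Igf2bp2* and *Hmga2*, for which single counts decide a value.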
